A study of Mus musculus with 6 samples.

Results

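Molecular chaperones and the genes of the unfolded protein response were compared between 2 lines of mouse pheochromocytoma (PHEO), a tumor of the chromaffin cells of the adrenal medulla. The list held 48 genes chosen by name: heat shock proteins and their co-chaperones, mitochondrial and endoplasmic reticulum (ER) folding factors, the sensors and transcription factors of the unfolded protein response (UPR), and factors of ER-associated degradation. Of these, 46 were measured, out of 19937 genes in all, each by the brightest probe set that the platform annotation gives to exactly 1 gene symbol. Ero1l was read under its newer symbol Ero1a, and Hsf1 and Hsp90ab1 are not analysed here.

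RNA was profiled from 3 MTT samples and 3 MPC samples, untreated cultured cells, with 1 Affymetrix Mouse Gene 1.0 ST array per sample. MPC is a line from a PHEO of an Nf1 knock-out mouse, and MTT was established from tumors that MPC cells seeded in the liver. Both lines thus share their origin in 1 tumor model, each is a single line, and the submitters give metastatic disease and a liver source for all 6 samples, so that the line of a sample rests on its title and its cell type. The methods call the MTT samples separate and do not describe the MPC arrays, and no source states separate cultures, so a p-value here refers to the scatter among these 6 arrays, which may be technical. Values are log2 signals after RMA, the Affymetrix method that subtracts background, equalizes the distribution over arrays and summarizes the probes of a probe set, and a difference of 1 is a doubling.

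Chaperones bind unfolded proteins and help them to fold. HSP70 and HSP90 use ATP to do so, and J-domain proteins and other co-chaperones steer them. In the ER, 3 membrane sensors, IRE1 (gene Ern1), PERK (Eif2ak3) and ATF6, respond to unfolded proteins: IRE1 splices the Xbp1 mRNA, PERK slows translation and favors ATF4, and ATF6 is cut to release a transcription factor. Chromaffin cells load the ER with hormone precursors and granule proteins. HSP90 is the target of 17-AAG, a drug that the study lists among the hits of its screen on MTT cells.

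Of the 46 chaperone and UPR genes, 3 passed the test between MTT and MPC cells (limma, Benjamini-Hochberg adjusted p under 0.05 over all genes), which is 6.52% against 7.87% of all genes. One was higher in MTT cells, the UPR transcription factor gene Xbp1, where 3.93% of all genes were higher. The other 2 were lower, the HSP70-like gene Hspa12a and the mitochondrial co-chaperonin gene Hspe1, where 3.94% of all genes were lower. The unadjusted p was under 0.05 for 7 of the genes, against 20.5% of all genes, and in 15 genes (32.6%) the 3 MTT arrays did not overlap with the 3 MPC arrays, against 27.2% of all genes. Of the 46, 45 had a mean signal above the median gene, and among genes that bright 12.2% were called and 40.1% did not overlap. The median difference, MTT minus MPC, was -0.019 over the 46 genes and -0.0081 over all genes, and the median size of a difference was 0.045 over the 46 and 0.050 over all.

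The intervals of the differences were narrow. For 43 of the 46 genes the whole 95% interval lay within a 1.2-fold change either way, as it did for 87.3% of all genes. The exceptions were Hspa12a, Xbp1 and Hspb8. Hspb8, a small heat shock protein, had an interval of -0.03 to 0.27.

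**Figure D1:**
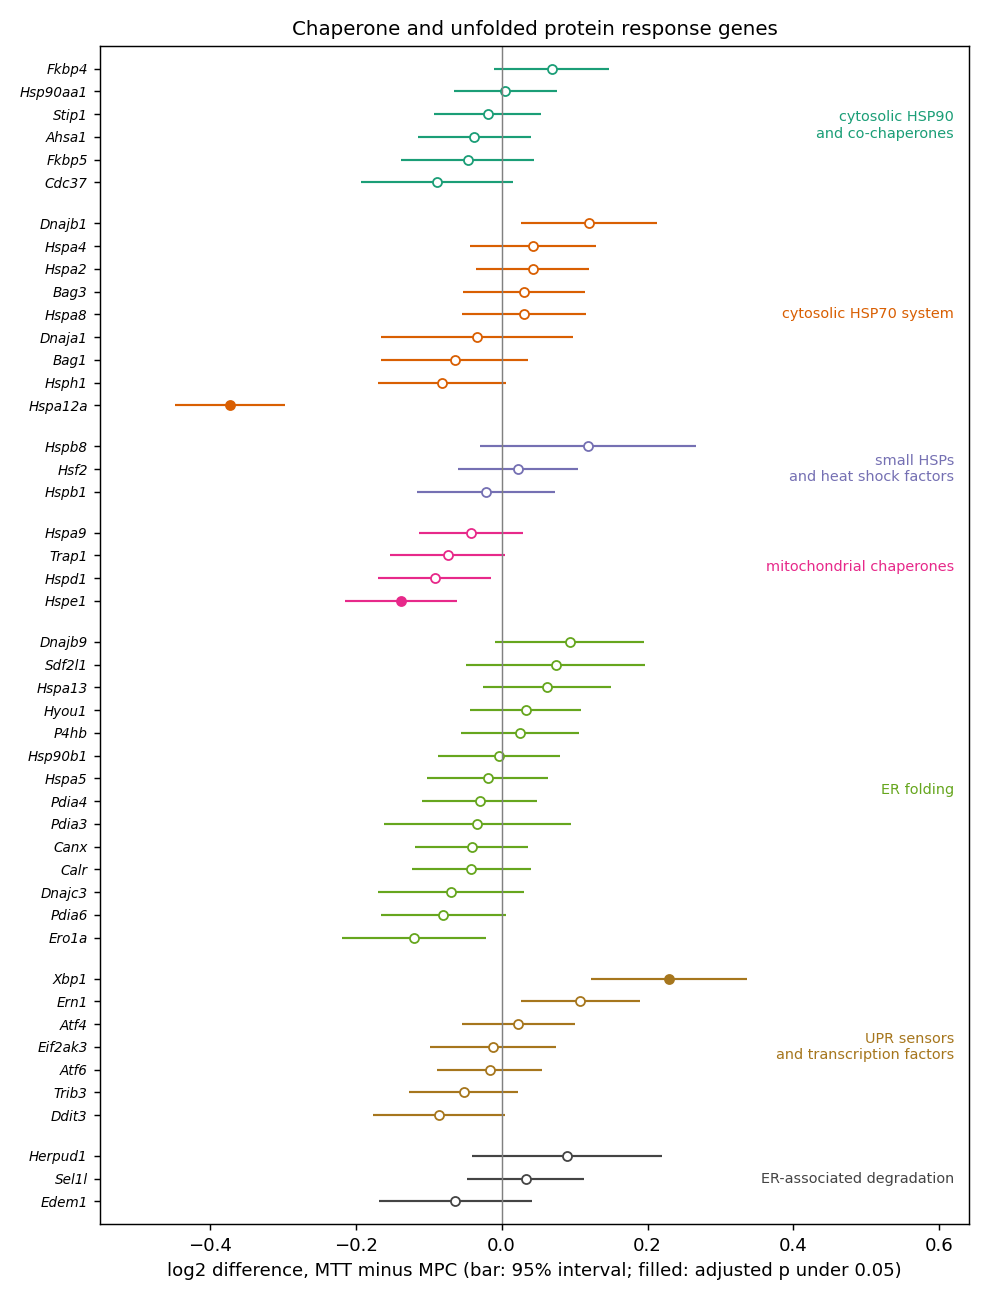
Log2 difference between MTT and MPC cells (horizontal axis, MTT minus MPC, 3 arrays each) for the 46 measured genes by class, with bars for the 95% interval and filled points for an adjusted p under 0.05. Xbp1 lies to the right at 0.23, Hspa12a to the left at -0.37 and Hspe1 at -0.14, and the bars of most other genes cross 0.

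Since several of these genes are switched on through known promoter elements, 300-base windows around gene starts (250 bases before and 50 after, RefSeq, GRCm38.p6) were searched on both strands. Of the 48 genes, 40 had a window; Hsp90aa1, Hsp90ab1, Hspa8, Hspa9, Hspa13, Hyou1, Hsf1 and Atf6 had none. The ER stress response element (ERSE), bound by NF-Y with ATF6 or XBP1, was searched as CCAAT, any 9 bases, then CCACG. It was present in 6 of the 40 windows (15%) and in 37 of 27025 genes with a window (0.137%). All 6 belong to the ER classes, where 21 genes had a window (28.6%), and 0 of the 19 other genes had the element. The search allowed no mismatch, and some genes named below as outputs of ATF6 and XBP1, such as Dnajb9 and Herpud1, had no match. A match thus does not define the targets of these factors. The sites are shown because XBP1 and ATF6 bind elements of this kind, 5′ to 3′ with the CCAAT and CCACG boxes in capitals:
Hspa5 (chr2:34772025-34772043, plus strand): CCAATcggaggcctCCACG
Hsp90b1, distal (chr10:86705638-86705656, minus strand): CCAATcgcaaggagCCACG
Hsp90b1, proximal (chr10:86705533-86705551, plus strand): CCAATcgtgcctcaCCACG
Dnajc3 (chr14:118937827-118937845, plus strand): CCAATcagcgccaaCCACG
Calr (chr8:84847075-84847093, plus strand): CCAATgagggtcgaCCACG
Canx (chr11:50325800-50325818, minus strand): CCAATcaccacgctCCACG
Pdia6 (chr12:17266491-17266509, plus strand): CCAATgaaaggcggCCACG

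The 7 sites share their boxes, which the search fixed, and have 7 different spacers. The Hspa5 site lies 65 to 47 bases before the gene start, and the distal site of Hsp90b1, the one farthest out, lies 212 to 194 bases before it. Hspa5 encodes BiP, the main HSP70 of the ER, and the 250 bases before its start are given with the exact ERSE match in capitals (chr2:34771840-34772089, plus strand):
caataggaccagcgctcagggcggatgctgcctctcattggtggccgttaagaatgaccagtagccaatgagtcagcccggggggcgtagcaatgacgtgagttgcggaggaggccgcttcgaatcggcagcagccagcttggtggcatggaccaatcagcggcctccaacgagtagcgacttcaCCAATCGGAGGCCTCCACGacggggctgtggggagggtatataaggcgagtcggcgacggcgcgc

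The heat shock element (HSE), bound by heat shock factors, was searched as 3 alternating GAA and TTC units with 2 bases between units. It was present in 3 of the 40 windows (7.5%), those of Hsph1, Hspd1 and Hspe1, and in 0.662% of all windows. Hspd1 and Hspe1 are neighbors on chromosome 1 that are read in opposite directions, and their windows overlap by 285 bases (chr1:55087898-55088182), so that their matches are the same stretch of DNA. The 250 bases before the start of Hspe1 are shown because the windows of both genes hold them, with the run of heat shock units in capitals (chr1:55087898-55088147, plus strand):
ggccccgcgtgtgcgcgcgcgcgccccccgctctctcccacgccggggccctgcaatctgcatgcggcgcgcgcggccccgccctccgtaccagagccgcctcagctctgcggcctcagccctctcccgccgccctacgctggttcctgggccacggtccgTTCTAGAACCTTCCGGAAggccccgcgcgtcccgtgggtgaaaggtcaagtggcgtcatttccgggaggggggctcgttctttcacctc

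The UPR element, searched as TGACG directly followed by TGG, was in 0 of the 40 windows and in 0.714% of all windows. Its reverse complement contains the CCACG box of the ERSE. The cyclic AMP response element, which shares the letters TGACGT with it, TGACG directly followed by TCA, was in the window of Trap1 alone (2.5%, against 2.03% of all windows). A match says that the letters are there and nothing about binding in these cells.

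Among the UPR sensors and transcription factors, Xbp1 was higher in MTT cells. Its signal was 11.72, 11.68 and 11.70 on the MTT arrays, against 11.53, 11.50 and 11.37 on the MPC arrays. The lines did not overlap, and the third MPC array was the lowest of the 6. The difference was 0.23 (SE 0.046, limma adjusted p = 0.021), a 1.17-fold higher signal. The array reads the summed Xbp1 transcripts, so the spliced form, which encodes the active factor, cannot be told apart from the unspliced one. The call was lost when any one MTT array was left out (adjusted p 0.0664 to 0.0828 in limma) and with ordinary instead of moderated variances (0.111).

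Ern1, the sensor that splices Xbp1, was at 9.84, 9.84 and 9.79 in MTT cells, against 9.75, 9.71 and 9.68 in MPC cells. The groups did not overlap, and the difference of 0.11 (SE 0.035) had an unadjusted p of 0.0156 and an adjusted p of 0.122 in limma. Xbp1 and Ern1 both lie on chromosome 11, where the 858 genes above the median signal had a median difference of 0.027 and quartiles of -0.023 and 0.079. Both genes were above that upper quartile. The part of chromosome 11 in these differences was not tested.

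The other sensors were close to equal. Atf6 was at 11.42, 11.40 and 11.43 in MTT cells, against 11.42, 11.44 and 11.44 in MPC cells, a difference of -0.016 with a 95% interval of -0.088 to 0.056. Eif2ak3 was at 10.23, 10.20 and 10.27 in MTT cells, against 10.23, 10.29 and 10.21 in MPC cells, a difference of -0.011 with an interval of -0.098 to 0.075. For neither sensor were the lines apart.

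Downstream of PERK, the transcription factor gene Atf4 was at 11.46, 11.42 and 11.40 in MTT cells, against 11.42, 11.42 and 11.38 in MPC cells. Ddit3, which encodes CHOP, a factor that ATF4 induces under lasting stress, was at 8.71, 8.78 and 8.78 in MTT cells, against 8.83, 8.89 and 8.80 in MPC cells. The Ddit3 arrays did not overlap, but the difference of -0.085 had an adjusted p of 0.27 in limma. Trib3, a pseudokinase gene induced by ATF4 and CHOP, had a difference of -0.052 (limma adjusted p = 0.419), again with no overlap between the lines. Atf4 itself is regulated largely through translation, which an array of mRNA does not read.

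**Figure D2:**
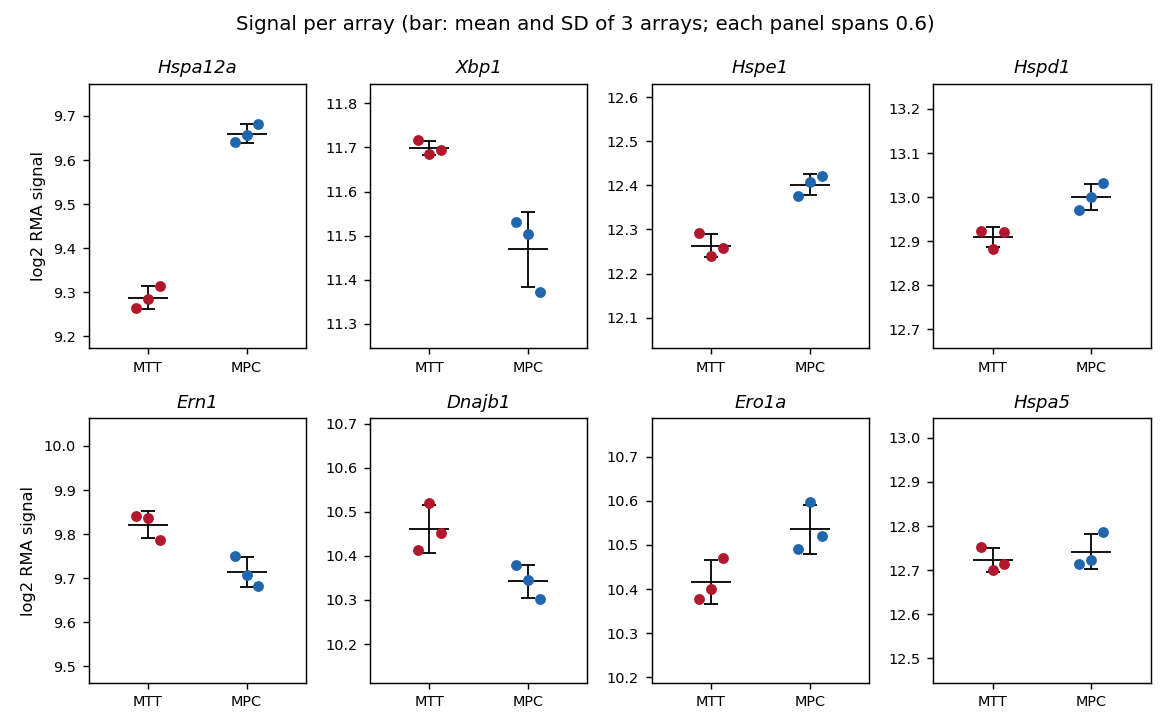
Log2 RMA signal on each array for 8 genes, MTT left and MPC right in each panel, with bars for the mean and SD of 3 arrays and the same vertical span of 0.6 in all panels. The lines are apart in 7 panels, which show the genes with an unadjusted p under 0.05 in limma, and in 27.2% of all genes. They overlap for Hspa5.

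Of the 14 ER folding genes, 0 passed the test, against 7.87% of all genes (limma, 1 with an unadjusted p under 0.05). Among genes above the median signal, where all 14 lie, 12.2% passed. For all 14 the 95% interval lay within 1.2-fold, as it did for 87.3% of all genes. Hspa5 was at 12.75, 12.70 and 12.71 in MTT cells, against 12.71, 12.72 and 12.79 in MPC cells. The difference was -0.019 with an interval of -0.10 to 0.063, and the lines overlapped for this ER stress marker. Hsp90b1, the HSP90 of the ER (GRP94), was at 12.42, 12.47 and 12.49 in MTT cells, against 12.45, 12.44 and 12.50 in MPC cells, a difference of -0.0039 that overlapped in full.

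The lectin chaperone gene Canx was at 12.97, 12.999 and 13.03 in MTT cells, against 13.03, 13.03 and 13.07 in MPC cells, and Calr, its soluble counterpart, differed by -0.042. Among the protein disulfide isomerases, P4hb differed by 0.025, Pdia3 by -0.033, Pdia4 by -0.030 and Pdia6 by -0.080. A second, dimmer probe set of Pdia4 differed by -0.14, with its MTT arrays below the MPC arrays and a limma p of 0.0176 before adjustment and 0.135 after it. The MTT arrays of Pdia6, at 10.71 to 10.73, were below the MPC arrays, at 10.74 to 10.85, but the adjusted p in limma was 0.278. The 6 genes with an ERSE had differences of -0.080 to -0.0039, and 0 of them passed the test, against 7.87% of all genes.

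Ero1a, the oxidase that recharges the disulfide isomerases, had the lowest unadjusted p of the ER folding class, 0.0227. Its signal was 10.38, 10.40 and 10.47 in MTT cells, against 10.49, 10.60 and 10.52 in MPC cells. The difference of -0.12 was larger than the SD of either line, 0.049 in MTT cells and 0.056 in MPC cells, and had an adjusted p of 0.155 in limma.

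Of the 14 ER folding genes, 5 had a difference above 0 and 9 below 0. Those above 0 were Dnajb9, an ER J-domain protein known as an XBP1 target, at 0.093, Sdf2l1 at 0.074, Hspa13 at 0.063, Hyou1, the ER nucleotide exchange factor, at 0.033 and P4hb at 0.025. Dnajb9 was at 10.55, 10.55 and 10.50 in MTT cells, against 10.51, 10.45 and 10.36 in MPC cells, so that 1 MPC array reached above the lowest MTT array (limma adjusted p = 0.286). Among those below 0, Dnajc3, a J-domain partner of BiP that also has an ERSE, differed by -0.069.

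In ER-associated degradation, Herpud1, a UPR-induced scaffold of the ubiquitin ligase complex, was at 11.53, 11.59 and 11.50 in MTT cells, against 11.55, 11.47 and 11.34 in MPC cells. The third MPC array set the MPC mean low here, and the difference of 0.090 had an adjusted p of 0.426 in limma. Sel1l, the adaptor of the same complex, differed by 0.033, and Edem1, which extracts misfolded glycoproteins from the folding cycle, by -0.063.

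The third MPC array stood somewhat apart, over all genes as well as for these. Over all genes its root mean square deviation from the MPC means was 0.0652, against 0.0489 to 0.0578 on the other 5 arrays from the means of their line. Over the 46 genes this deviation was 0.0502, against 0.0285 to 0.0394 on the other 5 arrays, and the third MPC array was the lowest of its line in 14 of the 24 genes of the 3 ER classes. Without it, Xbp1 was still called (limma adjusted p = 0.0292), and the median difference of the 46 genes was -0.0049.

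**Figure D3:**
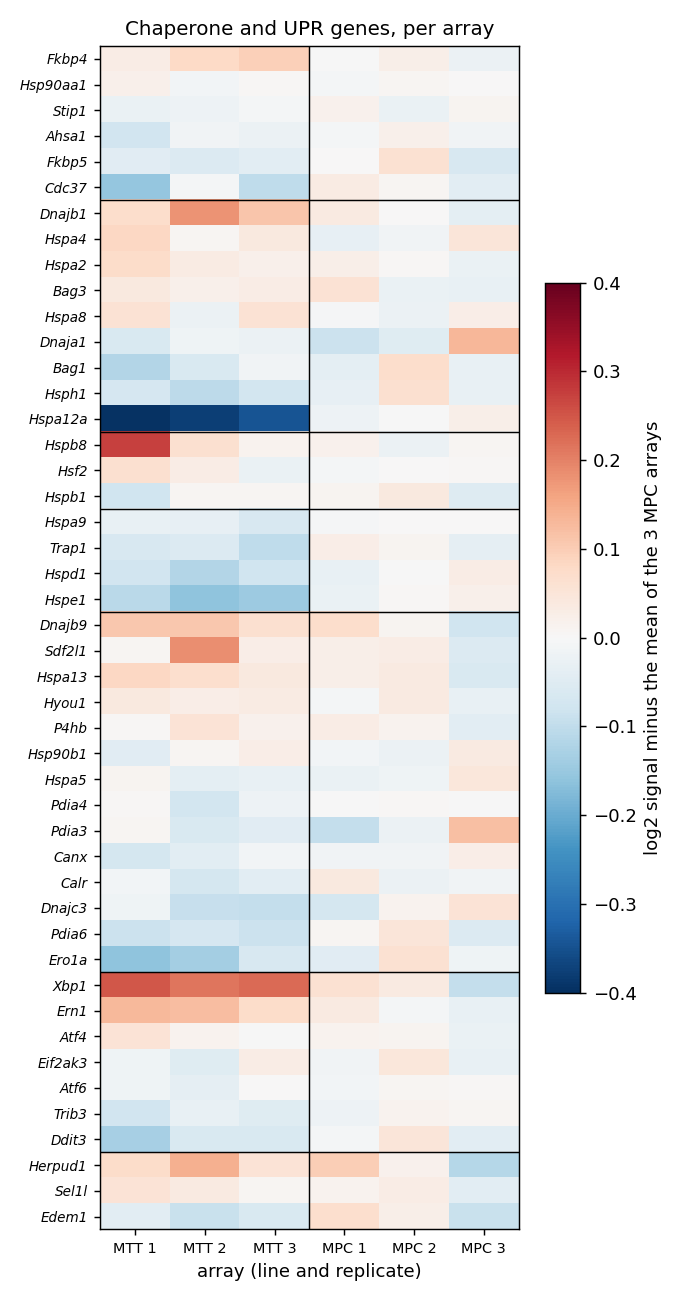
Log2 signal of each gene on each array minus the mean of the 3 MPC arrays (color), for the 46 genes in rows by class and the 6 arrays in columns, MTT left. Hspa12a is deep blue and Xbp1 red on the 3 MTT arrays, and the 4 mitochondrial chaperones near the middle are pale blue there.

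All 4 mitochondrial chaperone genes were lower on each MTT array than on any MPC array. That held for 3080 of all 19937 genes, and for 2228 of the 9968 genes above the median signal, where all 4 lie. In 1 direction or the other, 27.2% of all genes and 40.1% of those above the median did not overlap. Of the 4, 1 passed the test, against 7.87% of all genes and 12.2% of those above the median. Hspe1, the 10-kDa lid of the mitochondrial chaperonin (HSP10), was at 12.29, 12.24 and 12.26 in MTT cells, against 12.38, 12.41 and 12.42 in MPC cells. The difference was -0.14 (SE 0.033, limma adjusted p = 0.0437), a percent change of -9.12% in MTT signal relative to MPC. Its partner Hspd1, the barrel-forming HSP60, was at 12.92, 12.88 and 12.92 in MTT cells, against 12.97, 12.999 and 13.03 in MPC cells, a difference of -0.092 (SE 0.034) with an unadjusted p of 0.026 and an adjusted p of 0.168 in limma.

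Both chaperonin genes have a second probe set. That of Hspe1 differed by -0.12 and that of Hspd1 by -0.15, and for both the MTT arrays again lay below the MPC arrays. Neither passed the test (limma adjusted p over all probe sets 0.0943 for Hspe1 and 0.0967 for Hspd1). The 2 genes have near-identical processed copies in the mouse genome, so a probe set named for them may also read copies. The Hspe1 call was lost in each of the 6 fits without 1 array (limma adjusted p 0.0755 to 0.159), with ordinary variances (0.0557) and with arrays centred on their medians (0.0595).

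Trap1, the mitochondrial HSP90, was at 11.50, 11.51 and 11.47 in MTT cells, against 11.60, 11.58 and 11.53 in MPC cells, a difference of -0.074 (limma adjusted p = 0.27). Hspa9, the mitochondrial HSP70 (mortalin), differed by -0.042 (limma adjusted p = 0.502). Of 10 other mitochondrial chaperones and proteases on a wider list, 0 passed the test in limma, against 7.87% of all genes. An unadjusted p was under 0.05 for 1 in limma, and 4 differed upward and 6 downward. The lines did not overlap for 2 (20%, against 27.2% of all genes), both higher in MTT cells. The test of a difference between these 10 and the 4 chaperones was not made.

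In the cytosol, Hspa12a showed the lowest p of the 46 genes. Its signal was 9.26, 9.28 and 9.31 in MTT cells, against 9.64, 9.66 and 9.68 in MPC cells. The gap between the lines was several times the range within either, and the difference was -0.37 (SE 0.033, limma adjusted p = 0.000372), a percent change of -22.7% in MTT signal relative to MPC. Hspa12a encodes a distant HSP70 relative, described mainly in brain, whose ATPase domain is atypical. The call held without each array in turn (limma adjusted p 0.00202 to 0.00359) and under the other settings in which the gene was tested.

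Hspa12a lies on chromosome 19, where many genes were lower in MTT cells. Of 678 chromosome 19 genes, 16.4% were called lower, and the 337 above the median signal had a median difference of -0.11 with quartiles of -0.17 and -0.050. Within these 337, 7 genes had a lower difference than Hspa12a. Stip1, the HSP70-HSP90 organizing co-chaperone (HOP), lies on the same chromosome and differed by -0.019, with 275 of the 337 genes below it. The part of the chromosome in the Hspa12a difference was not tested.

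**Figure D4:**
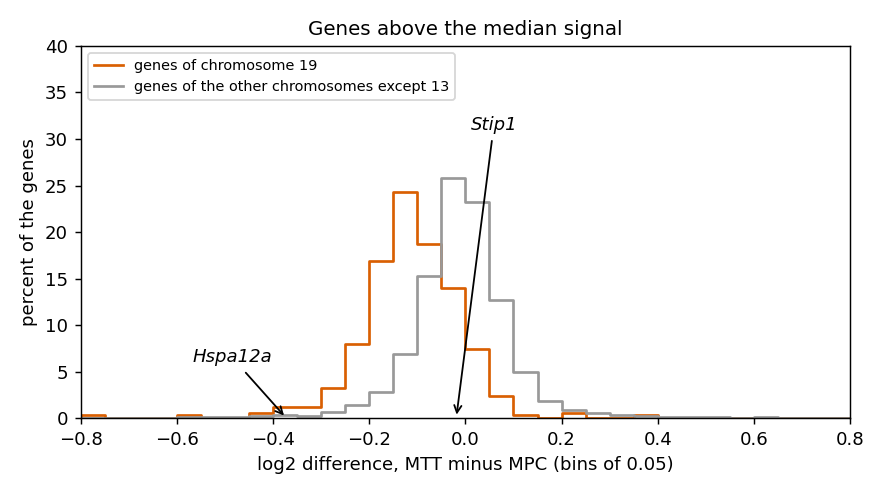
Share of genes (percent, vertical axis) by log2 difference, MTT minus MPC, in bins of 0.05, for genes above the median signal on chromosome 19 and on the other chromosomes except 13. The chromosome 19 curve, with a median of -0.11, lies left of the other, with Hspa12a in its left tail at -0.37 and Stip1 to the right of its median at -0.019.

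The other 8 genes of the cytosolic HSP70 class did not pass the test. Hspa8, the constitutive HSC70, was at 13.42, 13.34 and 13.42 in MTT cells, against 13.36, 13.34 and 13.39 in MPC cells, and its 3 probe sets differed by 0.030, -0.0044 and -0.010. Dnajb1, the HSP40 that delivers substrates to HSP70, was at 10.41, 10.52 and 10.45 in MTT cells, against 10.38, 10.35 and 10.30 in MPC cells. The Dnajb1 lines did not overlap, and the difference of 0.12 (SE 0.040) had an unadjusted p of 0.0182 and an adjusted p of 0.135 in limma. Hspa4 and Hspa2 differed by 0.043 each and Bag3 by 0.031, while Dnaja1 was at -0.034, Bag1 at -0.064 and Hsph1, an HSP110 exchange factor, at -0.082. For these 6 the adjusted p in limma was 0.278 to 0.813. A second, dimmer probe set of Dnaja1 differed by -0.023.

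Of the 2 cytosolic HSP90 genes, which encode the target of 17-AAG, Hsp90aa1 was measured. It was at 13.07, 13.03 and 13.05 in MTT cells, against 13.04, 13.05 and 13.05 in MPC cells. The difference was 0.0053 with a 95% interval of -0.066 to 0.076, and its other 2 probe sets differed by -0.024 and 0.016. Of the 6 measured genes of the cytosolic HSP90 class, 0 passed the test, and 0 had an unadjusted p under 0.05 in limma. The shares of all genes were 7.87% and 20.5%, and 12.2% of genes above the median signal, where all 6 lie, passed the test. Of the co-chaperones, Fkbp4, an immunophilin of steroid receptor complexes, was at 11.47 to 11.54 in MTT cells and 11.42 to 11.46 in MPC cells, and the lines did not overlap (difference 0.068, limma adjusted p = 0.312). The kinase-loading factor Cdc37 differed by -0.088, the ATPase activator Ahsa1 by -0.037 and Fkbp5 by -0.047.

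Among the small heat shock proteins and heat shock factors, Hspb8 was at 12.22, 12.01 and 11.96 in MTT cells, against 11.96, 11.92 and 11.95 in MPC cells. The first MTT array lay above the others, with an SD of 0.14 in MTT cells and 0.022 in MPC cells, and the difference of 0.12 had an adjusted p of 0.353 in limma. Hspb1 was dim, with a mean of 7.92 in MTT cells and 7.94 in MPC cells, and differed by -0.022. Its second probe set was dimmer still, at 6.75 in MTT cells and 6.82 in MPC cells, and differed by -0.072. Hsf2 differed by 0.023.

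To place these genes, 135 further genes of the same pathways were listed by role, of which 131 were measured. In limma, 11 of them (8.40%) were called, 8 higher and 3 lower in MTT cells, against 7.87% of all genes. Of genes above the median signal, where most of the 131 lie, 12.2% were called. Cryab, the small heat shock protein alpha-B-crystallin, showed the largest difference of the listed genes, measured at 9.57, 9.39 and 9.42 in MTT cells, against 8.72, 8.70 and 8.59 in MPC cells. The difference was 0.79 (SE 0.058, limma adjusted p = 0.000143), a 1.73-fold higher signal.

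Of the other J-domain genes, Dnajb5 was higher by 0.20 in MTT cells, and Dnajb4 was lower, at 10.87, 10.70 and 10.68 in MTT cells, against 11.02, 11.05 and 11.04 in MPC cells (difference -0.29, lost without the second MTT array at a limma adjusted p of 0.0561). Of the 8 subunits of the TRiC/CCT chaperonin, which folds actin and tubulin, 0 passed the test and 0 had an unadjusted p under 0.05 in limma. The shares of all genes were 7.87% and 20.5%, and 12.2% of genes above the median signal, where all 8 lie, passed the test. The 8 had differences of -0.066 to 0.058. Of 27 other ER folding genes, Txndc5, a disulfide isomerase, was called, at 10.96, 10.94 and 10.89 in MTT cells, against 10.66, 10.61 and 10.48 in MPC cells (difference 0.35, limma adjusted p = 0.00433). Faf2, an ER degradation factor, was higher by 0.19, and Map3k5, the stress kinase ASK1 that acts downstream of IRE1, by 0.20. Each of these 2 calls was lost in 4 of the 6 fits without 1 array (limma adjusted p 0.0646 to 0.083 for Faf2 and 0.0561 to 0.0914 for Map3k5) and with ordinary variances. Txndc5 and Faf2 lie on chromosome 13, where the 368 genes above the median signal had a median difference of 0.20 between MTT and MPC cells, with 344 of those genes below Txndc5 and 179 below Faf2. Their part in these differences was not tested.

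The integrated stress response, the arm in which PERK and related kinases act through ATF4, had 5 of its 21 measured genes called (23.8%, against 7.87% of all genes and 12.2% of genes above the median signal), 3 higher and 2 lower. No test of the list was made. Slc7a11, the cystine transporter, was at 8.02, 8.04 and 7.93 in MTT cells, against 7.73, 7.67 and 7.69 in MPC cells (difference 0.30, limma adjusted p = 0.00344). Atf3, a stress-induced transcription factor, differed by 0.27 and Shmt2, the mitochondrial serine enzyme, by 0.27. Phgdh, the first enzyme of serine synthesis, went the other way, at 10.05, 9.97 and 10.01 in MTT cells, against 10.23, 10.26 and 10.24 in MPC cells (difference -0.23, limma adjusted p = 0.00622). Vldlr, a lipoprotein receptor gene on chromosome 19, differed by -0.38, and 5 of the 337 bright genes of that chromosome were below it.

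Genes known as outputs of the UPR arms were grouped after their values had been seen, and the counts are therefore a description. Of 19 outputs of ATF6 and XBP1, among them Hspa5, Dnajb9, Pdia4, Herpud1 and Sel1l, 0 were called in limma, against 7.87% of all genes (2 had an unadjusted p under 0.05, both lower in MTT cells), and the differences ran from -0.14 to 0.093 with a median of -0.030. The group does not hold Xbp1 itself or Txndc5, whose window has the UPR element, and both were called higher. The count of 0 thus depends on which genes were grouped. Of 16 outputs of ATF4, 3 were called higher and 1 lower (25% in all, against 7.87% of all genes and 12.2% of genes above the median signal). The differences ran from -0.23 to 0.30 with a median of -0.011. The ends of that range are Phgdh and Slc7a11, already counted in the integrated stress response, so this count is not a separate result.

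**Figure D5:**
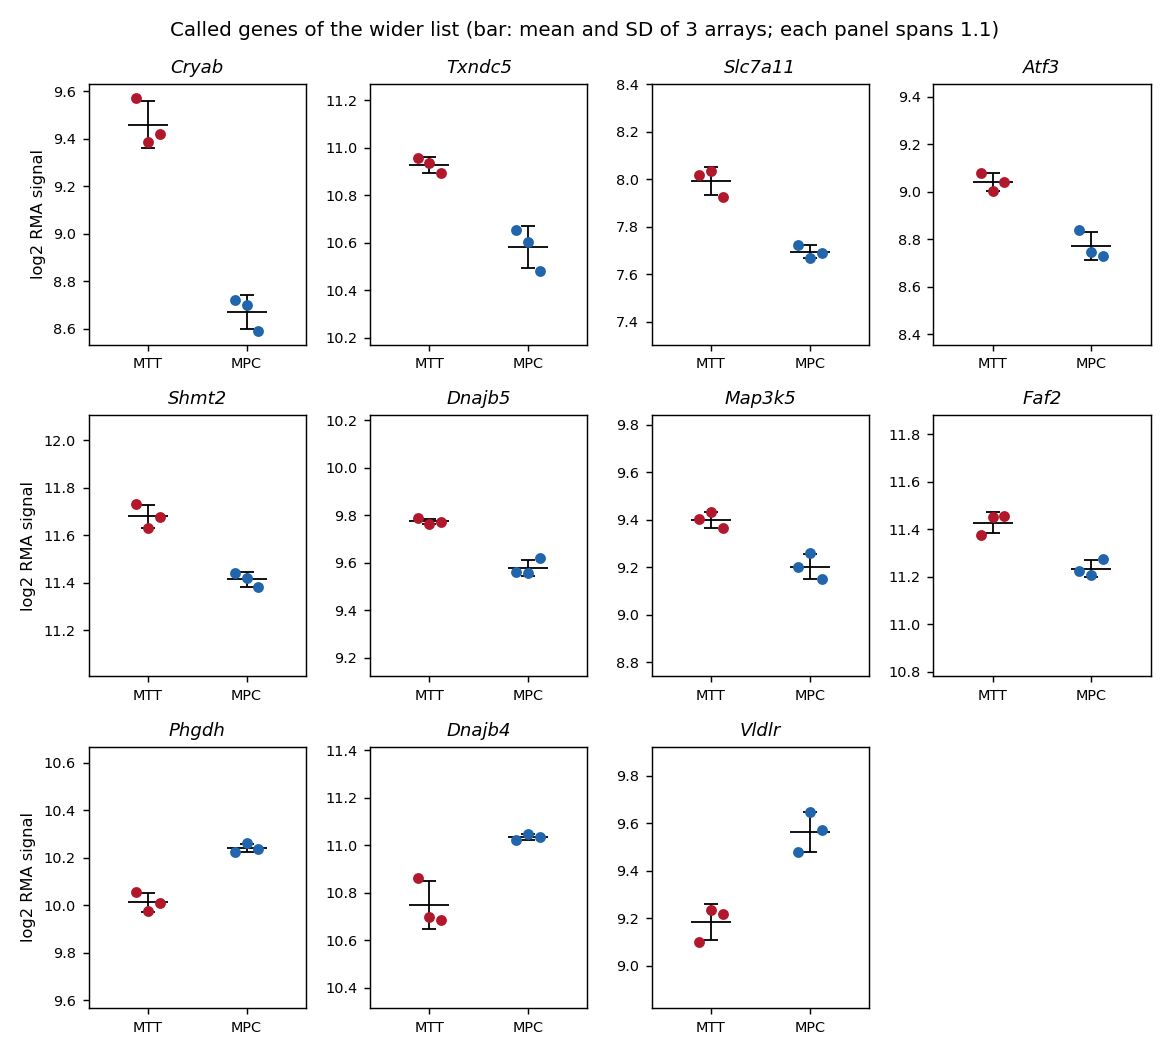
Log2 RMA signal on each array for the 11 called genes of the wider list, MTT left and MPC right in each panel, with bars for the mean and SD of 3 arrays and a vertical span of 1.1 in all panels. The lines are apart in all 11 panels, which were chosen by the test, and in 27.2% of all genes. The gap is largest for Cryab, and Phgdh, Dnajb4 and Vldlr are the 3 that are lower in MTT cells.

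The cell type of the samples was checked on marker genes. These were not chosen to tell MTT from MPC cells, so the line of a sample still rests on its labels. Of 15 measured chromaffin cell markers, 6 (40%, against 7.87% of all genes) were called in limma, 3 in each direction. Of these, Chrna3, a nicotinic receptor subunit gene, differed by -0.57 and Scg2, a granule protein gene, by 0.55. Mean signals of the 15 ran from 7.02 to 13.48. Th, the rate-limiting enzyme of catecholamine synthesis, was at 13.46 in MTT cells and 13.49 in MPC cells. Pnmt was at 6.97 in MTT cells and 7.08 in MPC cells, and Slc18a2 at 8.56 in both. Of 31 measured markers of adrenal cortex, liver, fibroblasts, endothelium and leukocytes, 0 were called (2 had an unadjusted p under 0.05), at mean signals of 4.34 to 8.74. Hspb1 was the sole measured chaperone gene of the 46 with a mean signal under the upper end of that range. Of the chromaffin cell markers, Pnmt, Slc18a2 and, in MPC cells, Scg2 at 8.47 also lay under it. The medians of the 6 arrays were 7.73 to 7.77, and 0 pairs of arrays were identical.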

How the data were processed

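The authors deposited log2 signals per probe set after RMA, which the study's methods name in Partek and in R; per the labels, the processing tools were Affymetrix Expression Console and RMA. No version of either was found. Of 34760 probe sets, 21640 had 1 gene symbol in the platform annotation; 1321 with several were left out. For the 954 genes with several probe sets, the brightest by its mean was kept. MTT and MPC cells were compared over 19937 genes with limma 3.58.1 in R 4.3.3 (lmFit and eBayes, two-sided, Benjamini-Hochberg, threshold 0.05), after the script had been tested on simulated data. Precision depends on the number of arrays. The genes, lists and tests were chosen with earlier results of these data known.

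The rule for values per array took genes past the threshold or with an unadjusted p under 0.05, the brightest of each class, the 3 sensors, Xbp1, Atf4, Ddit3, Hspa5 and the HSP90 genes; those of Dnajb9, Fkbp4 and Pdia6 were added after being seen. Of the wider list, called genes are named. Alternatives varied the variance model, the replicate block, the probe sets, a filter on dim genes, the normalization and the arrays used. A fit without genes of chromosomes 13 and 19 was chosen after seeing the data. Promoter windows are RefSeq's (GRCm38.p6). Python 3.11.15 and matplotlib 3.10.9 drew the figures.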

Additional observations from a re-analysis of the deposited data

How the results depend on the processing

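Hspa12a was called under every setting in which it was tested; leaving out the genes of chromosomes 13 and 19, added after the data were seen, removes it. Ordinary variances called 428 genes higher and 396 lower in MTT cells over all genes, 0 and 1 of the 46 chaperone and UPR genes, and 5 and 1 of the wider list; they ended the calls of Xbp1, Atf3, Dnajb4, Faf2, Map3k5, Txndc5 and Vldlr (limma adjusted p 0.0554 to 0.111) and of Hspe1 (0.0557). A mean-variance trend called 1114 genes higher and 1302 lower over all, 2 and 3 of the 46, and 14 and 10 of the wider list. It added Dnajb1 (limma adjusted p 0.0441) and Hspd1 (0.0164). A fit of the 9968 genes above the median signal alone called 1012 of these higher and 1195 lower. It left out Hspb1 as dim and called 3 and 4 of the remaining chaperone and UPR genes, and 13 and 10 of the wider list. Dnajb1, Ern1, Ero1a and Hspd1 were thus added (limma adjusted p 0.0327 to 0.0499), in a fit that called more genes in general. Median centring left 1 of the 46 lower, with Hspe1 at 0.0595. Without chromosomes 13 and 19, 469 genes were higher over all and 0 of the 46 lower, with Hspe1 at 0.0528. The median difference of the 46 was -0.0123 with median centring and -0.0126 with cyclic loess.

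With the replicate number as a block, 1 of the 46 was lower, since Hspe1 missed the threshold (limma adjusted p = 0.0763); 1 was higher in both fits. The numbers were not taken as pairs: the deviations of arrays with the same number correlated at 0.116, 0.0735 and 0.249, although each array correlated best with its own number.

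Leaving out each array gave 462 to 617 higher and 429 to 659 lower over all genes, 0 to 1 higher and 1 lower of the 46, 6 to 8 higher and 2 to 3 lower of the wider list, and a median of -0.0262 to -0.0049. Of the wider list, Dnajb4 (without MTT replicate 2, 0.0561), Faf2 (0.0646 to 0.083) and Map3k5 (0.0561 to 0.0914) lost their call in at least 1 such fit. In these fits 7 uncalled genes changed sign: Dnaja1 (-0.0765 to 0.0328), Eif2ak3 (-0.0315 to 0.0114), Hsp90aa1 (-0.0028 to 0.0138), Hsp90b1 (-0.0195 to 0.0174), Hspa5 (-0.0345 to 0.0037), Hspb1 (-0.0475 to 0.0075) and Pdia3 (-0.0804 to 0.0264); Hsp90aa1 also did with the mean of its probe sets (-0.000697), and Hsp90b1 with median centring (0.0029) and cyclic loess (0.0027). The causes were not tested. Signals near background, as for Hspb1 and perhaps Slc7a11, limit what a difference can show.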
